A study of Homo sapiens with 6 samples.

Results

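The genes described here encode the enzymes of glycolysis, lactate dehydrogenase, the carriers of glucose and lactate, kinases that set the rate of the pathway, and factors, sensors and targets of the response to low oxygen. The 37 genes were taken from a list of symbols, and 36 of them passed a minimum of 10 counts in at least 3 libraries, out of 62754 genes in the table. CA9, which encodes a carbonic anhydrase at the cell surface, was the gene that did not pass. HK-2 is an immortalised line of human proximal tubule epithelium. All cells in both groups were treated with Cisplatin, and either negative control siRNA (CP+siNC, n = 3) or siRNA against NAT10 (CP+siNAT10, n = 3) was transfected, so there was no group without Cisplatin or without siRNA. Bulk mRNA was sequenced, and the total counts were 19321665, 21602988 and 19464027 in the CP+siNC libraries and 20793709, 21531774 and 25192736 in the CP+siNAT10 libraries. The labels do not say whether the libraries came from separate cultures, so the p-values measure only the spread between these samples, which may be technical.

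Glycolysis splits glucose into pyruvate in the cytosol and yields ATP without oxygen, and lactate dehydrogenase interconverts pyruvate and lactate. When oxygen is short, prolyl hydroxylases of the EGLN family become less active, the alpha subunits HIF1A and EPAS1 escape degradation, and the HIF complex switches on many glycolytic genes together with VEGFA and other targets. The proximal tubule of the kidney normally burns fatty acids and makes glucose, while cultured tubule lines use glycolysis much more.

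The cell type label was compared with marker genes. Levels are given in CPM, counts relative to the library size scaled by the trimmed mean of M-values. Keratin genes of simple epithelium were abundant, with KRT8 at a mean of 1450 CPM and KRT18 at 346 CPM in CP+siNC, and the epithelial adhesion gene EPCAM was at 15.5 CPM. The cadherin gene CDH1 was near 0 (0.0510 CPM) and CDH2 was at 75.2 CPM. Among renal factors PAX8 was at 31.4 CPM, whereas PAX2 (0.638 CPM) and HNF4A (0.0835 CPM) were low. Of 14 proximal tubule markers, 5 passed the filter on low counts, among them GGT1 at 33.2 CPM and SLC5A2 at 9.30 CPM. The megalin gene LRP2 (0.0156 CPM), the cubilin gene CUBN (0.103 CPM) and the phosphate carrier gene SLC34A1 (0.220 CPM) were near 0 in CP+siNC, and SLC22A6 had no counts in any library. The markers thus met the epithelial label in part, by the keratins and EPCAM and not by CDH1, and most transporters and receptors that define the proximal tubule were near 0. Of 4 endothelial markers, 0 reached the filter, and their summed level was at most 0.514 CPM in a library. The 6 leukocyte markers summed to 210, 199 and 217 CPM in CP+siNC and 289, 266 and 269 CPM in CP+siNAT10. Nearly all of this was CD68, a lysosomal gene also active outside leukocytes (207 CPM in CP+siNC and 272 CPM in CP+siNAT10), whereas PTPRC, which marks leukocytes, was at 0.418 and 0.824 CPM.

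NAT10 itself, an acetyltransferase of RNA and protein (ENSG00000135372, chr11:34105617-34147670 on GRCh38), was examined first. Its level was 75.8, 71.4 and 73.2 CPM in the CP+siNC libraries and 41.3, 40.5 and 42.4 CPM in the CP+siNAT10 libraries. Every CP+siNAT10 library lay below every CP+siNC library. The fitted level in CP+siNAT10 was 56.5% of that in CP+siNC, with a log2 fold change of -0.83 (SE 0.0426, adjusted p = 2.79e-15, quasi-likelihood test of edgeR after Benjamini-Hochberg adjustment over all genes tested).

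Across the 36 tested members, 11 were higher and 12 were lower in CP+siNAT10 at an adjusted p under 0.05. The sum of 23 is 63.9% of the members, against 44.1% of all 19874 genes tested. These shares were not matched for count level, and genes with few counts pass such a test less readily. By direction, 30.6% of the members rose against 21.8% of all genes, and 33.3% fell against 22.3%. Their median log2 fold change was -0.03 and that of all genes was 0.007. Scaling by library size only gave the members a median of 0.008 and shifted the median of all genes upward by 0.037. The changes were mostly small. The median size was 0.18 on the log2 scale against 0.21 for all genes, 19 members lay within 0.2 of 0 (48.4% of all genes did), and 5 exceeded 0.5 in size (15.6% of all genes did). By edgeR's quasi-likelihood test, 0 members passed an adjusted p of 0.05 together with a log2 fold change over 1 in size, a limit that 2.33% of all genes passed. DESeq2 and edgeR's exact test also gave 0 by both limits, and 27 of the 36 members had an unadjusted p under 0.05, against 50.4% of all genes tested. The groups did not overlap for 28 members, of which 11 were above and 17 below, against 51.4% of all genes in either direction. In bulk RNA, fewer cells of a kind and less RNA per cell cannot be told apart.

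**Figure D1:**
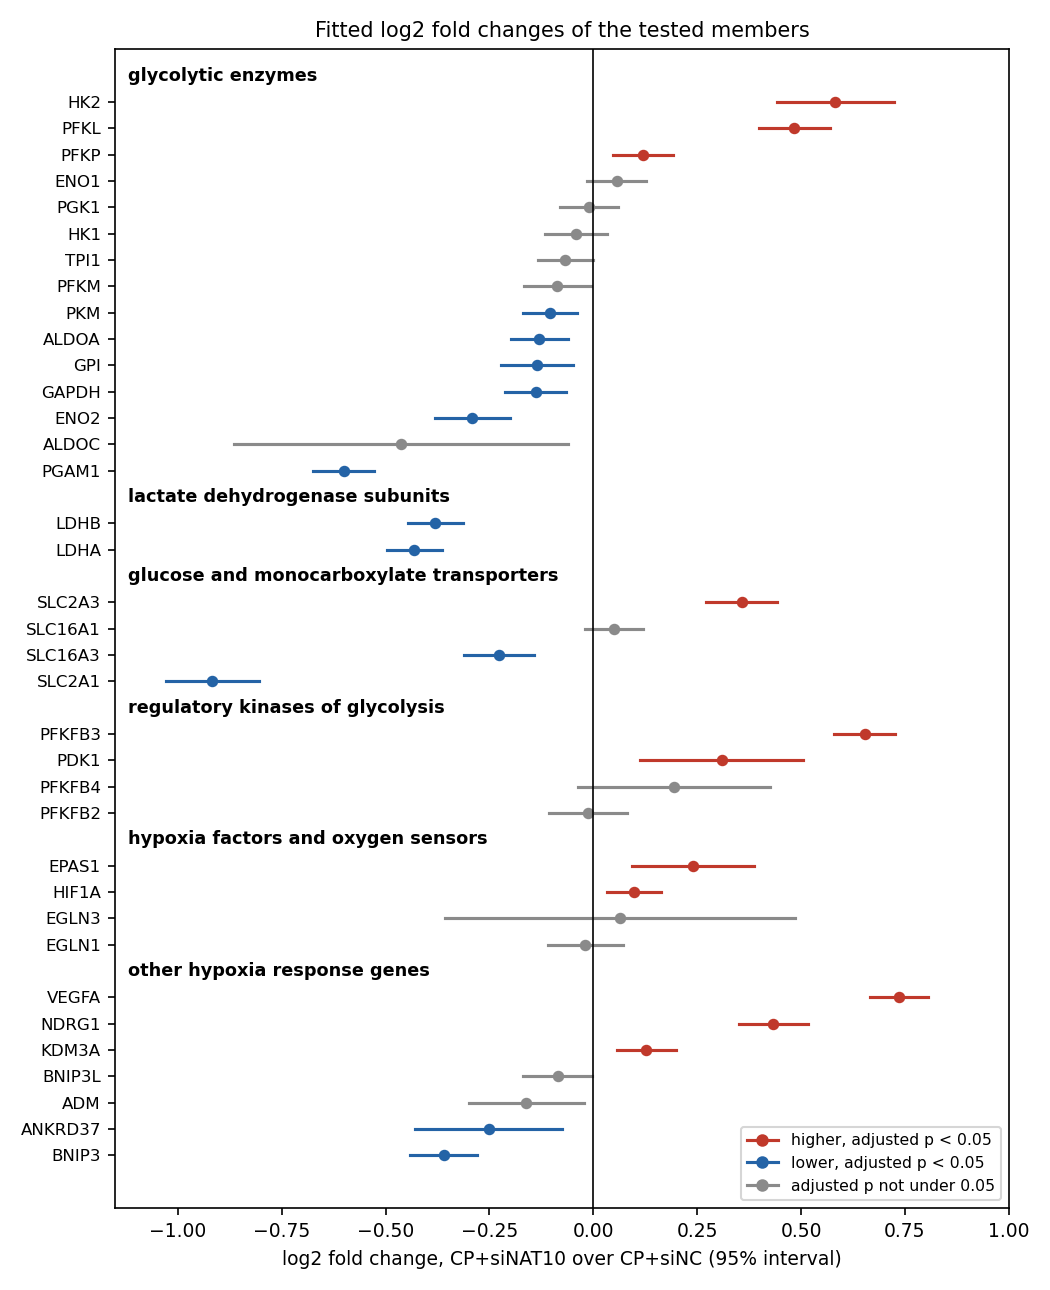
Fitted log2 fold change of CP+siNAT10 over CP+siNC for the 36 tested members, grouped by role, with bars for the 95% interval of each gene before adjustment and colours for the call at an adjusted p of 0.05. SLC2A1 lies farthest to the left at -0.92 and VEGFA farthest to the right at 0.74, and both signs occur among the enzymes, the transporters and the other hypoxia response genes.

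Promoters were searched because members that HIF is known to bind moved in both directions. The RefSeq table of promoters (GRCh38.p14, 250 bases before to 50 after each start) held 59 promoters of 31 members, and none for SLC2A3, SLC16A1, PFKFB2, VEGFA, BNIP3L and NDRG1. The motifs were ACGTG and GCGTG, the cores of the hypoxia response element, on both strands. The palindrome CACGTG holds ACGTG on each strand and so counts as 2 matches. At least 1 match was found in 40 of the 59 promoters (67.8%), against 60.3% of the 16750 promoters of tested genes and 48.4% of all 35116 promoters in the table. Counted by gene, 29 of the 31 members had a match in at least 1 promoter (93.5%), against 68.9% of 11762 tested genes. The count by gene favours the members, which had more promoters per gene (59 over 31 genes, against 16750 over 11762). A match was found for 8 of 8 members that rose, 11 of 12 that fell and 9 of 10 that did not pass the test. Counted by promoter, it was found in 12 of 16, 16 of 19 and 11 of 23. No test was made of this split. CACGTG occurred in 8 of the 59 promoters (13.6%) and in 9.4% of the promoters of tested genes. Shown are promoters of SLC2A1, the largest fall, of PFKFB3, the largest rise with an entry, and of HK2, LDHA and BNIP3, each with 6 matches. PFKFB3, HK2 and LDHA each have a further entry, and the entry with more matches is shown. The entry not shown held 1 match for PFKFB3, 3 for HK2 and 1 for LDHA, and no CACGTG. All read 5′ to 3′ on the strand of the gene, with matches in capitals.
SLC2A1 promoter, chr1:42958819-42959118, minus strand: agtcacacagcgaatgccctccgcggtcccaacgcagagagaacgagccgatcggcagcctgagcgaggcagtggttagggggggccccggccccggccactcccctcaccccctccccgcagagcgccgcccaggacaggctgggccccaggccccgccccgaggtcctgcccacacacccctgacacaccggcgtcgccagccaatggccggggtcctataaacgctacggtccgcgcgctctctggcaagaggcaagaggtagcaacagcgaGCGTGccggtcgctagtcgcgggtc
PFKFB3 promoter, chr10:6202682-6202981, plus strand: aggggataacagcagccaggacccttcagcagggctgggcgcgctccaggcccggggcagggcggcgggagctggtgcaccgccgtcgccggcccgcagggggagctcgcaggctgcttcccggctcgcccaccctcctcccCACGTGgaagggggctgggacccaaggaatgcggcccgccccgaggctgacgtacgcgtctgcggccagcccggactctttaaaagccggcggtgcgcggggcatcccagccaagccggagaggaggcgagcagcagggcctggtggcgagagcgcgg
HK2 promoter, chr2:74834920-74835219, plus strand: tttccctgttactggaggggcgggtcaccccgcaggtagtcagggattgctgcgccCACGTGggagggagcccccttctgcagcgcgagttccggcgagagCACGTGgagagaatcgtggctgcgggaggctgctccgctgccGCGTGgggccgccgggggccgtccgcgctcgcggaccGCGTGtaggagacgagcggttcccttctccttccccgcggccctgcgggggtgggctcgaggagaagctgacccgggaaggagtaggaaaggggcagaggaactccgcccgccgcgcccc
LDHA promoter, chr11:18394313-18394612, plus strand: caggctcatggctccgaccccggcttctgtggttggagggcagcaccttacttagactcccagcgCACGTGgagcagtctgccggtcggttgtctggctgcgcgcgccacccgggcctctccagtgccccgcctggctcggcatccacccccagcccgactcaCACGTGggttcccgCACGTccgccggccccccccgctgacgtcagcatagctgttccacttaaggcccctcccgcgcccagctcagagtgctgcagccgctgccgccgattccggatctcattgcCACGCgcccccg
BNIP3 promoter, chr10:131981874-131982173, minus strand: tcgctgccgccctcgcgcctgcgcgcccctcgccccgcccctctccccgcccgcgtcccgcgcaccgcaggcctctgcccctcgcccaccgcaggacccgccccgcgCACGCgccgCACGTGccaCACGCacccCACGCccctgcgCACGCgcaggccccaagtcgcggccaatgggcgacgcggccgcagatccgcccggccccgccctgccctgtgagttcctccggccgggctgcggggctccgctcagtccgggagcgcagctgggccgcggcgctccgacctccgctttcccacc

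The HK2, LDHA and BNIP3 windows each held 6 matches, and HK2 rose while LDHA and BNIP3 fell. The SLC2A1 window held 1 match, after the start, and the PFKFB3 window held 1 palindrome. A match is a description of the letters and neither a bound site nor a cause.

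The glucose and monocarboxylate transporters held the largest fall of any member. SLC2A1 (ENSG00000117394, chr1:42925353-42958859), which encodes the glucose carrier GLUT1, was at 77.6, 85.4 and 71.5 CPM in CP+siNC and at 39.0, 44.7 and 40.7 CPM in CP+siNAT10. The lowest control library was thus well above the highest knockdown library. SLC2A1 fell by 0.92 on the log2 scale (SE 0.0544, edgeR adjusted p = 6.21e-14), and 366 tested genes fell by more. SLC2A3 (ENSG00000059804, chr12:7919230-8019004), which encodes the high-affinity carrier GLUT3, went the other way. It was at 46.7, 48.4 and 46.5 CPM in CP+siNC and at 60.7, 61.3 and 59.6 CPM in CP+siNAT10. Its groups did not overlap, and it rose by 0.36 (SE 0.0420, edgeR adjusted p = 4.88e-08).

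SLC2A3 shares sequence with copies elsewhere in the genome, so its value is uncertain. The pseudogene SLC2A3P1 on chromosome 5 was at 30.6, 31.7 and 30.6 CPM in CP+siNC and at 25.2, 26.3 and 25.2 CPM in CP+siNAT10, a fall of the copy where the parent rose. Together, 3 copies held 52.3% as many counts as SLC2A3. With their counts added to SLC2A3 its log2 fold change was 0.14 (edgeR adjusted p = 0.00308), and over 16 alternatives the adjusted p lay between 6.56e-14 and 0.00308. The close paralog SLC2A14 was at 1.27, 1.73 and 1.40 CPM in CP+siNC and at 1.80, 1.83 and 1.89 CPM in CP+siNAT10, and did not pass the test (log2 fold change 0.32, SE 0.199).

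To compare levels between genes, CPM was divided by gene length in kilobases (RPKM). The length is the one deposited with the counts, so an order between genes by RPKM depends on it. By RPKM the ratio of SLC2A3 to SLC2A1 was 0.549, 0.517 and 0.593 in CP+siNC and 1.42, 1.25 and 1.33 in CP+siNAT10. With the counts of the 3 copies added to SLC2A3 the ratio was 0.911, 0.858 and 0.989 in CP+siNC and 2.02, 1.80 and 1.91 in CP+siNAT10. SLC2A3 was thus the more abundant of the pair in each knockdown library, while the order in CP+siNC was nearly level once the copies were added. The difference between their log2 fold changes was 1.27 (SE 0.0688, taking the genes as independent). The summed level of both was 18.2, 19.6 and 17.2 RPKM in CP+siNC and 14.3, 15.2 and 14.4 RPKM in CP+siNAT10, and the groups did not overlap.

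SLC16A1, which encodes the lactate and pyruvate carrier MCT1, had the highest RPKM of the transporters (37.7 in CP+siNC and 39.0 in CP+siNAT10). Its level was 242, 243 and 233 CPM in CP+siNC and 247, 241 and 255 CPM in CP+siNAT10. These groups overlapped and the gene did not pass the test (log2 fold change 0.05, SE 0.0336, edgeR adjusted p = 0.240), although with scaling by library size only it did (adjusted p = 0.0274, with a range of 0.0274 to 0.617 over 16 alternatives). SLC16A3, which encodes the lactate exporter MCT4, fell by 0.23 (SE 0.0411, edgeR adjusted p = 4.25e-05). The RPKM ratio of SLC16A3 to SLC16A1 was 0.206, 0.203 and 0.217 in CP+siNC and 0.175, 0.168 and 0.173 in CP+siNAT10, which did not overlap. Summed over both carriers, the level was 45.9, 46.0 and 44.7 RPKM in CP+siNC and 45.7, 44.4 and 47.1 RPKM in CP+siNAT10, and these groups overlapped.

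**Figure D2:**
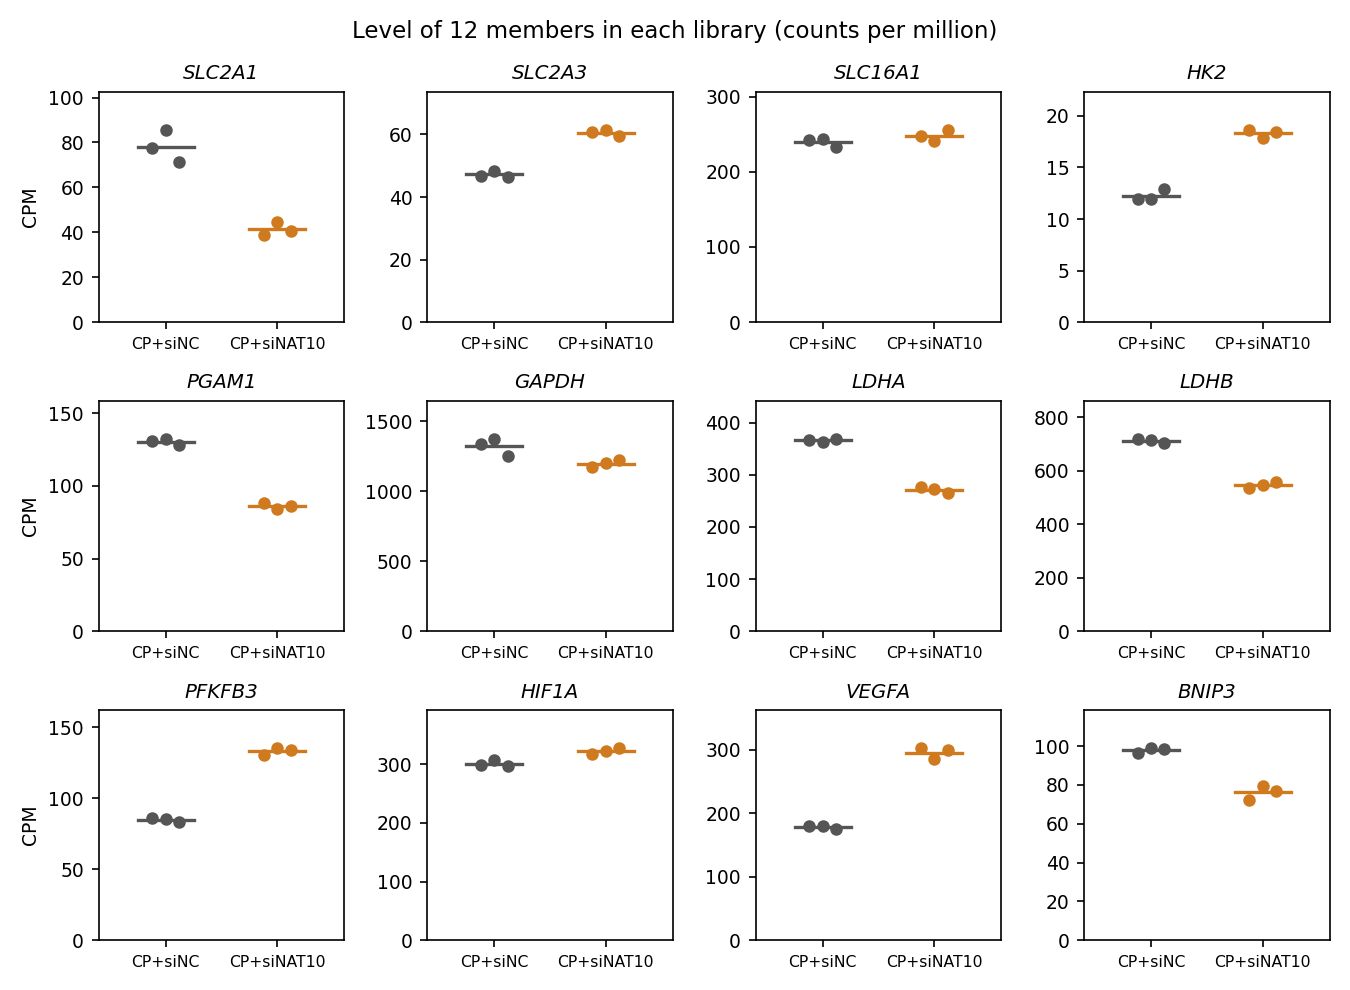
Level of 12 members in each library in CPM, on axes that start at 0, with a point for each library and a line for the mean of its group. SLC2A1 was between 71.5 and 85.4 CPM in CP+siNC and between 39.0 and 44.7 CPM in CP+siNAT10, VEGFA rose from at most 179 to at least 285 CPM, and the SLC16A1 groups overlapped.

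Of the 15 glycolytic enzymes, 3 rose, 6 fell and 6 did not pass the test, with a median log2 fold change of -0.09. The shares were 20% higher and 40% lower, against 21.8% and 22.3% of all genes tested, so the rises were near the general share. HK2 (ENSG00000159399, chr2:74834127-74893359), a hexokinase that traps glucose in the cell and is inducible in many tissues, had the largest rise. It was at 11.9, 11.9 and 12.9 CPM in CP+siNC and at 18.6, 17.9 and 18.4 CPM in CP+siNAT10. All knockdown libraries were above all controls, and HK2 rose by 0.58 (SE 0.0690, edgeR adjusted p = 5.42e-08). The constitutive hexokinase HK1 did not pass the test (-0.04, SE 0.0367). It was the more abundant of the pair in every library, with an RPKM ratio of HK2 to HK1 of 0.144, 0.147 and 0.160 in CP+siNC and 0.229, 0.229 and 0.237 in CP+siNAT10. The sum of HK1 and HK2 was 15.8 ± 0.217 RPKM (SD, n = 3) in CP+siNC and 16.5 ± 0.341 RPKM (SD, n = 3) in CP+siNAT10. HKDC1, a further hexokinase outside the list that is named after its value was seen, was more abundant than this sum, at 23.0 RPKM in CP+siNC and 21.0 RPKM in CP+siNAT10 (log2 fold change -0.13, SE 0.0427, edgeR adjusted p = 0.0114). With HKDC1 included the summed level was 39.5, 39.2 and 37.6 RPKM in CP+siNC and 38.1, 38.3 and 35.8 RPKM in CP+siNAT10, and the groups overlapped.

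Phosphofructokinase, which commits sugar to glycolysis, is built from subunits encoded by PFKL, PFKM and PFKP. PFKL rose by 0.48 (SE 0.0417, edgeR adjusted p = 1.29e-10) and PFKP by 0.12 (SE 0.0352, edgeR adjusted p = 0.00662). PFKM had a log2 fold change of -0.09 (SE 0.0394) and an adjusted p of 0.0761 by edgeR, or 0.0400 without CP+siNAT10 replicate 1, the smallest of 16 alternatives, which reached 0.409. The PFKP call was lost when CP+siNC replicate 2 (adjusted p = 0.0529) or CP+siNAT10 replicate 3 (adjusted p = 0.0553) was omitted, with a range of 0.000448 to 0.0553 over 16 alternatives. The proportions of the subunit mRNAs moved toward PFKL, and protein was not measured. The RPKM ratio of PFKM to PFKL was 1.96, 1.71 and 1.77 in CP+siNC and 1.26, 1.12 and 1.26 in CP+siNAT10. That of PFKP to PFKL was 2.42, 2.09 and 2.26 in CP+siNC and 1.73, 1.66 and 1.84 in CP+siNAT10. Neither ratio overlapped between the groups, and PFKL had the lowest RPKM of the subunits in both. The sum over the 3 subunits was 36.6 RPKM in each control library and 40.3, 39.3 and 40.8 RPKM in the knockdown libraries.

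PGAM1 (ENSG00000171314, chr10:97426191-97432690), the phosphoglycerate mutase of most tissues, fell furthest among the enzymes. It was at 131, 132 and 128 CPM in CP+siNC and at 88.3, 84.1 and 85.8 CPM in CP+siNAT10. The groups were far apart relative to their spread, and PGAM1 fell by 0.60 on the log2 scale (SE 0.0360, edgeR adjusted p = 7.40e-14). PGAM4, a retrocopy nearly identical to PGAM1, also fell, by 0.56 (SE 0.107, edgeR adjusted p = 7.90e-05), at 7.17, 7.52 and 6.80 CPM in CP+siNC and 4.99, 5.08 and 4.58 CPM in CP+siNAT10. Reads of the pair cannot be told apart where their sequences match.

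GAPDH, which makes NADH in the pathway and is often used as a reference gene, had the highest RPKM of all members (550 in CP+siNC and 500 in CP+siNAT10). Its level was 1340, 1370 and 1250 CPM in CP+siNC and 1170, 1200 and 1220 CPM in CP+siNAT10. The groups did not overlap but lay close, and GAPDH fell by 0.14 (SE 0.0355, edgeR adjusted p = 0.00194), with values from -0.18 to -0.10 over 16 alternatives. ENO2, the enolase best known from neurons, fell by 0.29 (SE 0.0438, edgeR adjusted p = 2.89e-06), whereas the general enolase ENO1 did not pass (0.06, SE 0.0344, edgeR adjusted p = 0.192). Scaling by library size only brought ENO1 past the limit (adjusted p = 0.0189, with a range of 0.0189 to 0.635 over 16 alternatives). The RPKM ratio of ENO2 to ENO1 was 0.0940, 0.0937 and 0.102 in CP+siNC and 0.0737, 0.0795 and 0.0739 in CP+siNAT10.

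The other falls among the enzymes were small. ALDOA, the aldolase of most tissues, fell by 0.13 (SE 0.0335), GPI, which converts glucose 6-phosphate to fructose 6-phosphate, by 0.14 (SE 0.0429), and PKM, a pyruvate kinase gene, by 0.10 (SE 0.0322). The edgeR adjusted p was 0.00211 for ALDOA, 0.0110 for GPI and 0.00972 for PKM. GPI lost the call with library size only (adjusted p = 0.0725) and without CP+siNC replicate 2 (0.0971), with a range of 0.00347 to 0.0971 over 16 alternatives. PKM lost it with library size only (adjusted p = 0.0737) and without CP+siNAT10 replicate 2 (0.0532), with a range of 0.00120 to 0.0737. TPI1 (-0.07, SE 0.0328) and PGK1 (-0.01, SE 0.0338), which follow aldolase in the pathway, did not pass. ALDOC, an aldolase of brain, was the least abundant enzyme at 0.809 RPKM in CP+siNC, and its log2 fold change of -0.46 had an SE of 0.196 (edgeR adjusted p = 0.0573). It passed when CP+siNC replicate 2 (adjusted p = 0.0368) or CP+siNAT10 replicate 1 (0.0352) was omitted, within a range of 0.0352 to 0.20 over 15 alternatives. Summed over the 15 enzymes, the level was 1270, 1280 and 1220 RPKM in CP+siNC and 1170, 1170 and 1190 RPKM in CP+siNAT10, 93.3% of the control mean. GAPDH was the largest part of this sum, at 550 RPKM in CP+siNC and 500 RPKM in CP+siNAT10, so the sum mainly follows the most abundant enzymes.

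Both lactate dehydrogenase subunits fell. LDHA (ENSG00000134333, chr11:18394560-18408218), the subunit that prevails in skeletal muscle and is induced by HIF, was at 367, 363 and 368 CPM in CP+siNC and at 276, 273 and 266 CPM in CP+siNAT10. LDHB (ENSG00000111716, chr12:21635342-21757831), the subunit that prevails in heart, was at 717, 713 and 705 CPM in CP+siNC and at 534, 548 and 558 CPM in CP+siNAT10. In both genes the 3 controls were within a few percent of each other and above all knockdown libraries. LDHA fell by 0.43 (SE 0.0321, edgeR adjusted p = 7.02e-12) and LDHB by 0.38 (SE 0.0322, edgeR adjusted p = 9.87e-11). The proportion of the subunits overlapped between the groups: the RPKM ratio of LDHA to LDHB was 0.254, 0.252 and 0.258 in CP+siNC and 0.256, 0.246 and 0.236 in CP+siNAT10. The difference of their log2 fold changes was -0.05 (SE 0.0455). Their summed level was 301, 299 and 297 RPKM in CP+siNC and 225, 229 and 231 RPKM in CP+siNAT10, 76.3% of the control mean.

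Among the regulatory kinases, 2 of 4 rose and the others did not pass, with a median log2 fold change of 0.25. This is 50% higher and 0% lower, against 21.8% and 22.3% of all genes tested. PFKFB3 (ENSG00000170525, chr10:6144934-6254644) makes fructose 2,6-bisphosphate, the strongest activator of phosphofructokinase. It was at 85.7, 85.2 and 83.0 CPM in CP+siNC and at 130, 135 and 134 CPM in CP+siNAT10. Each group was tight and the gap between them was wide, and PFKFB3 rose by 0.65 (SE 0.0359, edgeR adjusted p = 1.08e-14). At 13.8 RPKM in CP+siNC it was also the most abundant of the kinases, ahead of PFKFB2 at 4.34 RPKM, PFKFB4 at 0.807 RPKM and PDK1 at 0.455 RPKM. PFKFB2 (-0.01, SE 0.0454) and PFKFB4 (0.20, SE 0.113) did not pass. The sum of these 3 PFKFB genes was 19.2, 18.9 and 18.9 RPKM in CP+siNC and 26.5, 27.2 and 27.2 RPKM in CP+siNAT10. PDK1, which switches off pyruvate dehydrogenase and is a HIF target, rose by 0.31 (SE 0.0955, edgeR adjusted p = 0.00939). PDK2 and PDK3, which have the same function, lie outside the list and are named after their values were seen, were more abundant and fell, PDK2 (3.19 RPKM in CP+siNC) by 0.61 (SE 0.0743, edgeR adjusted p = 1.05e-07) and PDK3 (0.995 RPKM) by 0.38 (SE 0.0728, edgeR adjusted p = 9.57e-05). PDK4 (1.74 RPKM) did not pass (-0.24, SE 0.102). DESeq2 did not call PDK1 (adjusted p = 0.0667, with a range of 0.00419 to 0.0667 over 16 alternatives).

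Of the 4 factors and oxygen sensors, 2 rose and 2 did not pass the test. The shares were 50% higher and 0% lower, against 21.8% and 22.3% of all genes tested. HIF1A (ENSG00000100644, chr14:61695513-61748258), the alpha subunit whose protein is controlled mainly by degradation, was at 299, 307 and 297 CPM in CP+siNC and at 318, 322 and 327 CPM in CP+siNAT10. The knockdown libraries were all slightly higher, and HIF1A rose by 0.10 (SE 0.0321, edgeR adjusted p = 0.0132). This call was lost when CP+siNC replicate 3 (adjusted p = 0.0708) or CP+siNAT10 replicate 3 (adjusted p = 0.0538) was omitted, with a range of 0.000674 to 0.0708 over 16 alternatives. EPAS1, which encodes HIF-2 alpha, was at 18.5, 23.7 and 20.7 CPM in CP+siNC and at 23.6, 27.2 and 23.9 CPM in CP+siNAT10. CP+siNC replicate 2 lay within the range of the knockdown libraries, so the groups overlapped. EPAS1 rose by 0.24 (SE 0.0716, edgeR adjusted p = 0.00698), and the call was lost when CP+siNC replicate 1 (0.16, adjusted p = 0.0949) or CP+siNAT10 replicate 2 (0.18, adjusted p = 0.0778) was omitted, with a range of 0.000502 to 0.0949 over 16 alternatives. Per length HIF1A was far more abundant, at 58.4 RPKM against 2.88 RPKM for EPAS1 in CP+siNC. The hydroxylase genes EGLN1 (-0.02, SE 0.0445) and EGLN3 (0.07, SE 0.206) did not pass, and EGLN3 was at 0.227 RPKM in CP+siNC. EGLN3 is itself a HIF target.

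The other hypoxia response genes moved in both directions: 3 rose, 2 fell and 2 did not pass. This is 42.9% higher and 28.6% lower of the 7 tested, against 21.8% and 22.3% of all genes tested. VEGFA (ENSG00000112715, chr6:43770184-43784658), which encodes the main growth factor of blood vessels, showed the largest rise of any member. It was at 179, 179 and 175 CPM in CP+siNC and at 302, 285 and 299 CPM in CP+siNAT10. No knockdown library came near the controls, and VEGFA rose by 0.74 (SE 0.0338, edgeR adjusted p = 2.51e-16), a rise exceeded by 543 tested genes. NDRG1, a stress-responsive gene, rose by 0.43 (SE 0.0405, edgeR adjusted p = 6.61e-10), and KDM3A, a histone demethylase, by 0.13 (SE 0.0349, edgeR adjusted p = 0.00352).

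BNIP3, which encodes a receptor for removal of mitochondria, was the most abundant of these genes per length in CP+siNC, at 24.2 RPKM against 12.3 RPKM for VEGFA. In CP+siNAT10 the order by RPKM was turned, with 18.8 RPKM for BNIP3 and 20.5 RPKM for VEGFA. This order depends on the lengths used, 14431 bases for VEGFA and 4050 bases for BNIP3. By CPM VEGFA was above BNIP3 in both groups, at 177 against 97.9 CPM in CP+siNC and 296 against 76.3 CPM in CP+siNAT10. The level of BNIP3 was 96.4, 98.8 and 98.5 CPM in CP+siNC and 72.4, 79.4 and 76.9 CPM in CP+siNAT10. The groups did not overlap, and BNIP3 fell by 0.36 (SE 0.0391, edgeR adjusted p = 1.14e-08). Its paralog BNIP3L did not pass (-0.09, SE 0.0401), and the RPKM ratio of BNIP3 to BNIP3L was 1.47, 1.56 and 1.51 in CP+siNC and 1.23, 1.28 and 1.24 in CP+siNAT10. ANKRD37, a small ankyrin repeat gene, fell by 0.25 (SE 0.0861, edgeR adjusted p = 0.0183). The ANKRD37 call was lost with DESeq2 (adjusted p = 0.0836) and on omission of CP+siNC replicate 1 (0.0577) or CP+siNAT10 replicate 1 (0.102), with a range of 0.00742 to 0.102 over 16 alternatives. ADM, which encodes the vasodilator adrenomedullin, had a log2 fold change of -0.16 (SE 0.0675) and an adjusted p of 0.0541 by edgeR. Over 16 alternatives the adjusted p of ADM lay between 0.0378, without CP+siNAT10 replicate 1, and 0.193. ADM passed in 5 of these by edgeR, also with DESeq2 size factors (adjusted p = 0.0498) and upper quartile scaling (0.0463). It passed as well with the filters of at least 10 counts in 3 libraries (0.0494) and a minimum count of 50 (0.0425). CA9, a gene with very low expression outside hypoxia, had 0, 2 and 0 counts in CP+siNC and 3, 4 and 2 counts in CP+siNAT10 and was not tested.

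**Figure D3:**
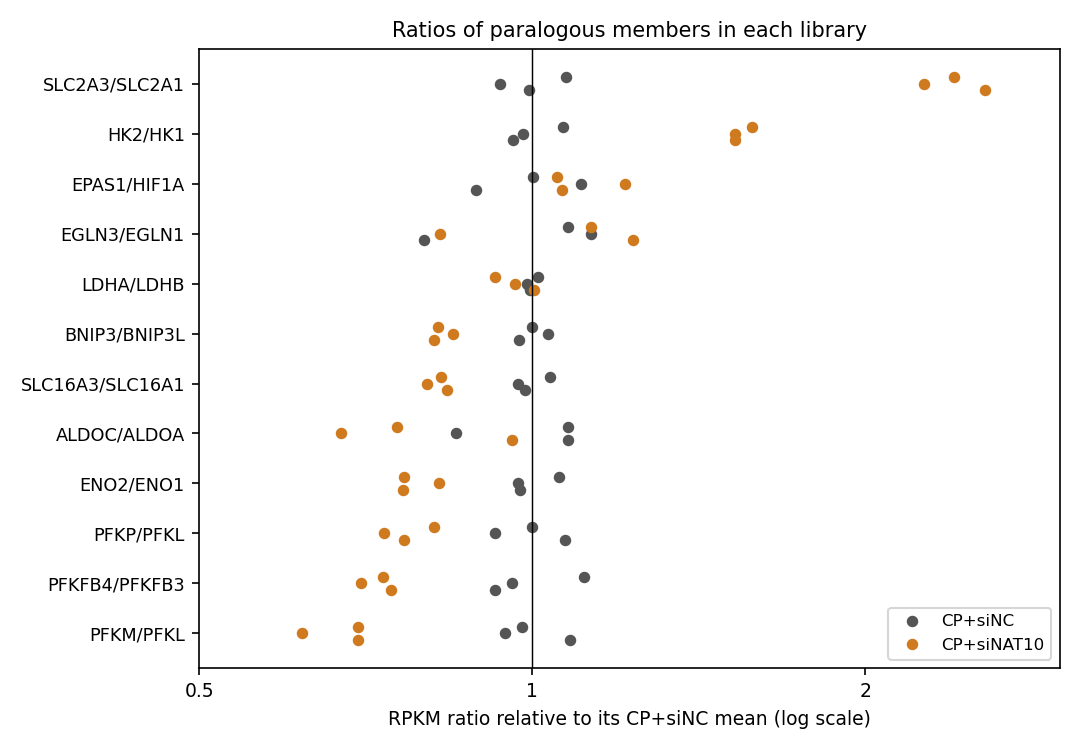
RPKM ratio of paralogous members in each library, divided by the mean of the CP+siNC libraries, on a log2 axis, with grey points for CP+siNC and orange points for CP+siNAT10. SLC2A3 to SLC2A1 shifted most, from a mean of 0.553 to 1.34 before that division, while LDHA to LDHB, EGLN3 to EGLN1, ALDOC to ALDOA and EPAS1 to HIF1A overlapped between the groups.

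Genes of the same pathways outside the list were described by direction. Of 22 further glycolysis genes tested, 1 rose and 10 fell, with a median of -0.12 on the log2 scale. The shares were 4.55% higher and 45.5% lower, against 21.8% and 22.3% of all genes tested. The rise was ADPGK, an ADP-dependent glucokinase (0.35, SE 0.0470, edgeR adjusted p = 4.34e-07). Falls included ENO3, the muscle enolase (-0.39, SE 0.0506), and TIGAR, which lowers fructose 2,6-bisphosphate (-0.21, SE 0.0462).

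For the entry of pyruvate into mitochondria, 3 of 13 genes rose and 6 fell, with a median of -0.12. This is 23.1% higher and 46.2% lower, against 21.8% and 22.3% of all genes tested. The carrier subunit MPC1 rose by 0.52 (SE 0.0771, edgeR adjusted p = 2.35e-06). The pyruvate dehydrogenase genes PDHB (-0.47, SE 0.0457) and DLAT (-0.51, SE 0.0617) fell, as did PDP2, a phosphatase that activates the enzyme (-0.68, SE 0.0672). The small rises of PDP1 (0.15, SE 0.0447), another such phosphatase, and PDPR (0.15, SE 0.0416), its regulator, were lost without CP+siNC replicate 2 (PDP1, edgeR adjusted p = 0.0560) and without CP+siNC replicate 3 (PDPR, 0.0545). Over 16 alternatives the adjusted p of PDP1 was 0.00127 to 0.0560 and that of PDPR 0.000694 to 0.0545.

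Of 8 genes of gluconeogenesis, a function of the proximal tubule in vivo, 5 passed the filter, while PCK1, FBP1 and G6PC1 had means of at most 0.119 CPM in CP+siNC. SLC37A4, the glucose 6-phosphate carrier of the endoplasmic reticulum, fell by 0.80 (SE 0.137, edgeR adjusted p = 1.86e-05). FBP2 rose by 0.29 (SE 0.116, edgeR adjusted p = 0.0483), a call lost in 10 of 16 alternatives, among them the omission of CP+siNC replicate 1 or 3 and of CP+siNAT10 replicate 1 or 2 (adjusted p = 0.126, 0.173, 0.122 and 0.121, with a range of 0.0266 to 0.181 over all). In the pentose phosphate pathway, 1 of 7 genes rose and 2 fell, a called share of 42.9% that is near the 44.1% of all genes tested. TKT, a transketolase, rose by 0.18 (SE 0.0381), while PGD, which makes NADPH, fell by 0.32 (SE 0.0322), and RPE, an epimerase, by 0.25 (SE 0.0598).

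Of 12 other oxygen-sensing genes, 2 rose and 3 fell, a called share of 41.7% that is near the 44.1% of all genes tested. ARNT, the partner of HIF1A, rose by 0.26 (SE 0.0508, edgeR adjusted p = 1.35e-04). ELOC, which works with VHL in the breakdown of HIF alpha, fell by 0.42 (SE 0.0414, edgeR adjusted p = 1.62e-09), its partner ELOB by 0.17 (SE 0.0506), and CITED2, a competitor of HIF1A for its coactivators, by 0.27 (SE 0.0379). The rise of EGLN2, a further hydroxylase (0.11, SE 0.0392, edgeR adjusted p = 0.0283), was lost with DESeq2 (0.103) and without CP+siNC replicate 1 (0.158), CP+siNC replicate 2 (0.0697), CP+siNAT10 replicate 1 (0.0591) or CP+siNAT10 replicate 3 (0.0648), with a range of 0.00445 to 0.158 over 16 alternatives. The call of ELOB was lost without CP+siNC replicate 2 (adjusted p = 0.0738, with a range of 0.00359 to 0.0738). VHL did not pass (0.07, SE 0.0400).

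The 37 further hypoxia response genes tested also split, with 11 rises and 14 falls and a median of 0.01. This is 29.7% higher and 37.8% lower, against 21.8% and 22.3% of all genes tested. BHLHE40, a repressor induced by HIF, rose by 0.88 (SE 0.0438, edgeR adjusted p = 1.45e-15), IGFBP3, which binds insulin-like growth factors, by 0.58 (SE 0.0432), and AKAP12, a kinase scaffold, by 0.42 (SE 0.0335). LOX, a crosslinker of collagen, fell by 1.43 (SE 0.0818, edgeR adjusted p = 2.56e-14) from 20.1 to 7.40 CPM, PPP1R3C, a glycogen regulator, by 0.67 (SE 0.0836), and VLDLR, a lipoprotein receptor, by 0.47 (SE 0.0560). LOX was the fall of this list past both limits. The rises past both limits were KDM4B (1.04, SE 0.12, from 3.40 to 7.01 CPM) and NOS2 (1.44, SE 0.419, from 0.221 to 0.606 CPM), named after their values were seen. NOS2 had 4, 3 and 6 counts in CP+siNC and 13, 15 and 13 counts in CP+siNAT10, so it reached the minimum count only in the group where it was high, and its rise is no independent result.

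**Figure D4:**
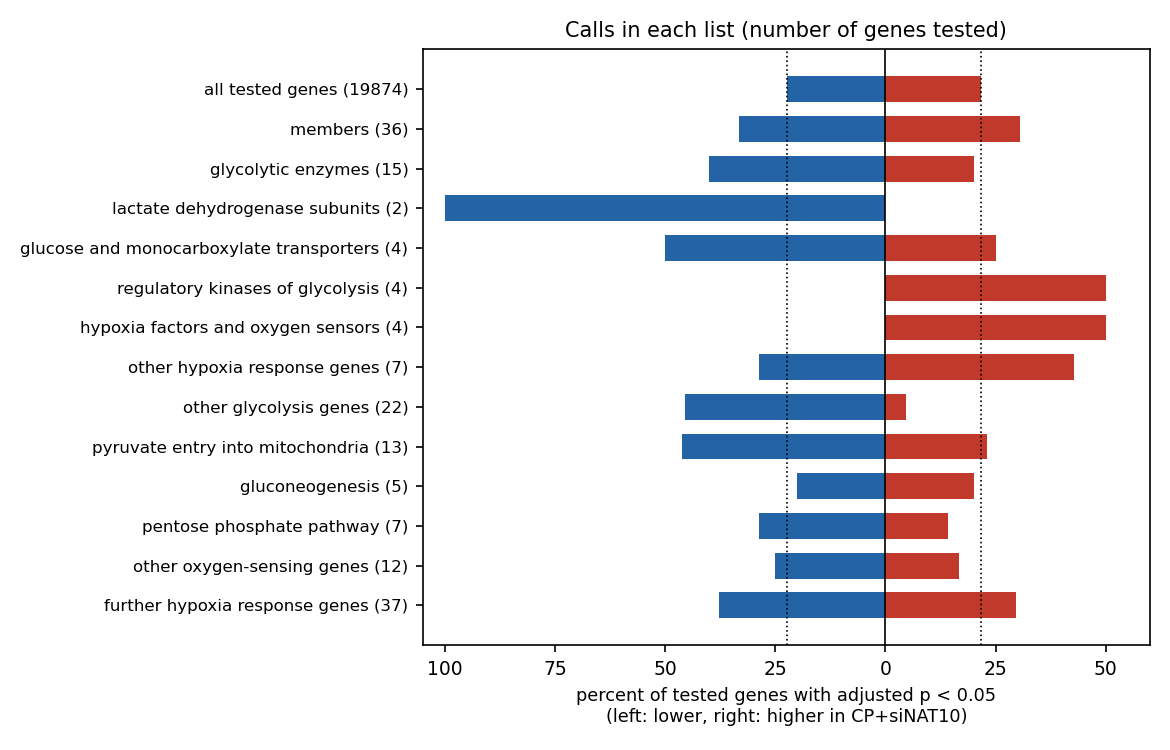
Percent of the tested genes of each list that were lower (blue, to the left) or higher (red, to the right) in CP+siNAT10 at an adjusted p under 0.05, with the number tested in brackets and dotted lines at the shares of all tested genes. All genes gave 22.3% lower and 21.8% higher, the members 33.3% and 30.6%, and the 22 other glycolysis genes 45.5% and 4.55%.

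Reads shared between overlapping genes limit some values. The annotation places a gene with at least 10% as many counts over 17 of the tested members, and the sources used here do not say whether counting used strand. LDHB lies within ENSG00000285854 on the same strand, which had 99.6% as many counts and the same log2 fold change of -0.38, and ALDOA lies likewise with ENSG00000285043 (95.8% as many counts). Opposite GAPDH, ENSG00000269968 was at 331, 338 and 331 CPM in CP+siNC and at 282, 285 and 277 CPM in CP+siNAT10, and opposite VEGFA, ENSG00000272114 had a log2 fold change of 0.71 beside 0.74 for VEGFA. Reads of such pairs cannot be told apart. For 5 members the overlapping gene had more counts than the member itself: SPTSSA over EGLN3 (2260% as many), RSKR over ALDOC (846%), CSNK1D over SLC16A3 (158%), UFSP2 over ANKRD37 (137%) and YOD1 over PFKFB2 (121%). CSNK1D had a log2 fold change of 0.14 where SLC16A3 fell, and YOD1 one of -0.54 where PFKFB2 was at -0.01. For HIF1A, the overlapping ENSG00000258964 had 42.6% as many counts and moved the other way, with a log2 fold change of -0.22 (SE 0.0354, edgeR adjusted p = 1.03e-05).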

How the data were processed

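HK-2 RNA was sequenced by a company for the authors in stranded, paired-end mRNA libraries with molecular identifiers, 3 per group. The authors deposited raw counts per gene from featureCounts. The submitters' processing notes name Trimmomatic 0.36, STAR 2.5.3a, Subread 1.5.1 and the build GRCh38. The annotation and the use of strand are not given in the sources used here. The identifiers serve to correct for duplicates, but no step that merges them is described. Samples were grouped by their labels, and no sample was left out.

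The analysis ran edgeR 4.0.16 (with limma 3.58.1, in R 4.3.3). Of 62754 genes, 19874 passed filterByExpr at a minimum count of 10 and a minimum total of 15. After TMM scaling the groups were compared by the quasi-likelihood test, with Benjamini-Hochberg adjustment over all tested genes. Dividing a log2 fold change by the root of its F statistic gave its standard error. CPM uses the scaled library size, and RPKM the gene length of the deposited count table. The smallest exact p for 3 against 3 libraries is 0.1, so each gene's p comes from the fit across genes. With 19321665 to 25192736 counts per library, genes with few counts, such as EGLN3 and ALDOC, had the larger standard errors. The programs were tested on simulated counts with 200 changed genes. Promoters were searched and plots drawn with Python 3.11.15, pandas 2.3.3 and matplotlib 3.10.9.

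Members and lists were chosen with earlier results of these data known, and the lists were written from general knowledge. Named were NAT10, all members, and up to 3 rises and 3 falls with the smallest p of each pathway list. Values in every library were given for the largest rise and fall and the highest RPKM of each role, and for HIF1A. Alternatives were DESeq2 size factors, upper quartile scaling, library size only, filters (a total above 0, at least 10 counts in 3 libraries, a minimum count of 50), the exact test, DESeq2 1.42.0, a replicate block, pseudogene copies added, a test against a fold change of 1.5 (glmTreat) and the omission of each library.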

Additional observations from a re-analysis of the deposited data

How the results depend on the processing

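Over 16 alternatives, 9 to 13 members were higher and 10 to 14 lower (of all genes 3253 to 5050 and 3439 to 4520). The 13 higher and 10 lower came with library size only, where 57.2% of the calls over all genes were higher. In each, 0 members passed both limits by edgeR's quasi-likelihood test, its exact test or DESeq2 (27 of 36 members had an unadjusted p under 0.05, against 50.4% of all genes). glmTreat, which tests against a fold change of 1.5 in place of both limits, called 2 members (SLC2A1 and VEGFA) and 451 of all genes. Of the 23 called members, 16 kept their call in every alternative and 7 lost it in at least 1 (GPI, PFKP, PKM, PDK1, HIF1A, EPAS1 and ANKRD37), while 5 others gained a call in at least 1 (PFKM, ALDOC, ENO1, SLC16A1 and ADM). Among NAT10, the members and the pathway genes named by rule, no call reversed. HKDC1, KDM4B, NOS2, PDK2, PDK3, PDK4, SLC2A14, SLC2A3P1, VHL and the overlapping genes were not rerun singly. The median log2 fold change of the members was -0.03, 0.008 with library size only, where all genes shifted by 0.037, and between -0.053 and -0.025 without single libraries. The count of all genes past both limits was 464, and 711 without a filter beyond a total above 0, where genes of very low counts enter, and 202 with a minimum count of 50, where they leave. The labels number the replicates 1 to 3 in both groups. Same-numbered libraries correlated at 0.00808, 0.0639 and -0.205 in their deviations from the group means over 12304 genes. Not every library correlated best with its own number, so no pairing by number was seen. Such a check, with 3 libraries per group, cannot show whether same-numbered samples were set up together. With a replicate block the NAT10 log2 fold change was -0.825, the members' median -0.03, 11 members were higher and 12 lower with 0 past both limits, and of all genes 4208 were higher, 4318 lower and 461 past both limits. Depth limits CA9, EGLN3 and ALDOC most.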
